A study of Mus musculus with 6 samples.

Results

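The 8 genes described here were grouped as transcription factors of pancreatic acinar identity. These are Ptf1a, Rbpjl, Bhlha15, Nr5a2, Gata4, Gata6, Hnf4a and Nr0b2, the last encoding a repressor of nuclear receptors. They were chosen by name from a table of raw read counts, each matching 1 of its 56953 genes, and all 8 were among the 14738 genes with enough counts to be tested. The libraries were made from primary mouse acini, the pancreatic units that make digestive enzymes, embedded in Matrigel and kept for 3 days in an assay of acinar-to-ductal metaplasia (ADM), in which explanted acini turn into duct-like structures. The study asked whether the secreted glycoprotein DKK3 keeps acini in their differentiated state. WT denotes acini of wild-type mice without treatment, DD denotes acini of mice homozygous for a ubiquitous Dkk3 knockout allele without treatment, and DD + rDKK3 denotes such knockout acini treated with recombinant soluble DKK3, with 2 libraries in each group. All 6 cultures shared the medium, which held serum, a trypsin inhibitor and dexamethasone, a glucocorticoid. The labels give ages of 10 and 11 weeks for WT, 12 and 13 weeks for DD and 14 and 15 weeks for DD + rDKK3, so as labelled, age and group cannot be told apart. WT 2 is labelled female and the other libraries male. No label ties a library to a named animal, so the p-values measure the spread between these libraries only.

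PTF1A is a basic helix-loop-helix (bHLH) protein that binds DNA in the PTF1 complex, together with a ubiquitous bHLH partner (an E protein) and an RBPJ-type subunit. In the mature acinus that subunit is RBPJL, the acinar form, in place of RBPJ, and the complex drives the genes of digestive enzymes. BHLHA15, also called MIST1, is a bHLH factor that scales up the secretory machinery. NR5A2 (LRH-1) is an orphan nuclear receptor that works with the PTF1 complex, GATA4 and GATA6 are zinc finger factors of pancreas formation and acinar maintenance, and HNF4A is a nuclear receptor of endodermal epithelia. NR0B2 (SHP) lacks a DNA-binding domain and represses nuclear receptors, NR5A2 and HNF4A among them, and its gene is in turn a target of NR5A2. Loss of several of these factors is known to make acini prone to ADM.

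The 250 bases before the annotated start of the main transcript are shown for the 4 genes whose level varied most between libraries, since bHLH factors and the RBPJ-type subunit recognise short words in DNA. Capitals mark matches to 4 motifs searched on both strands: the E-box CANNTG of bHLH factors, the RBPJ word TGGGAA, the NR5A word AAGGTCA and the GATA word AGATAA. For Hnf4a the main transcript starts inside the gene, downstream of the gene's first annotated base.
Ptf1a (GRCm39, chr2:19450224-19450473, + strand): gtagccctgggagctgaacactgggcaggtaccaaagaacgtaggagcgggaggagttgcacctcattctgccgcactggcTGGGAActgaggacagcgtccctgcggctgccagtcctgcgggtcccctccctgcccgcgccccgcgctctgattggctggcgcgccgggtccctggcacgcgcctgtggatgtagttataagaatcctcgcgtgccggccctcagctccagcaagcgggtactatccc
Bhlha15 (GRCm39, chr5:144126836-144127085, + strand): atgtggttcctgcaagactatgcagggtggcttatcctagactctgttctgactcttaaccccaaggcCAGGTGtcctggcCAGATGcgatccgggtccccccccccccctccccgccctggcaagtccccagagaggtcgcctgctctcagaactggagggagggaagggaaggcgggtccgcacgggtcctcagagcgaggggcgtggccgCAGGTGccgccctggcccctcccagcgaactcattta
Hnf4a (GRCm39, chr2:163388819-163389068, + strand): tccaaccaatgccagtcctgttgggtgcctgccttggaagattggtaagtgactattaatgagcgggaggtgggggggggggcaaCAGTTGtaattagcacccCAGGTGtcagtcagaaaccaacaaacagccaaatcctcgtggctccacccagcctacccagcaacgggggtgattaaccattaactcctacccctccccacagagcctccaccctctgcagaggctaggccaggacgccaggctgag
Nr0b2 (GRCm39, chr4:133280428-133280677, + strand): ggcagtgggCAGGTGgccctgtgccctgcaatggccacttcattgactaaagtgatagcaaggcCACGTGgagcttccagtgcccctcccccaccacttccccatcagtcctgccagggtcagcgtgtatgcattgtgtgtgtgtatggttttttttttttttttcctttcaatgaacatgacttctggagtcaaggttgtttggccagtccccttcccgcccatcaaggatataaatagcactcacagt
Ptf1a held 1 RBPJ word and no E-box in this window. Bhlha15 held 3 E-boxes, whereas Hnf4a and Nr0b2 held 2 each. Of 21770 windows of the same length upstream of protein-coding genes, 64.8% held an E-box, 22.7% the RBPJ word, 3.93% the NR5A word, 9.6% the GATA word, and 15.3% both an E-box and the RBPJ word. Of the members not printed, the Gata4 window had 2 E-boxes and 1 GATA word, the windows of Rbpjl and Nr5a2 had none of the 4 words, and Gata6 was not searched. For Gata4 and Nr5a2, as for Hnf4a, the main transcript starts inside the gene. A match is a description of letters and not a binding site. By the deposited GRCm39 coordinates, 3 members lie on chromosome 2 (Ptf1a at chr2:19450474-19452312, Hnf4a at chr2:163348728-163414830 and Rbpjl at chr2:164245061-164257368, all on the + strand), Bhlha15 at chr5:144127104-144131259 (+), Nr5a2 at chr1:136770309-136888186 (-), Gata4 at chr14:63436371-63509141 (-) and Nr0b2 at chr4:133280687-133283847 (+).

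Library totals ranged from 12018473 to 19750401 counts, and levels are given as CPM, counts scaled to a common library size, after adjustment by the trimmed mean of M-values (TMM). The acinar label was borne out by the sum of its 7 marker genes, between 82490 and 142100 CPM, against 1597 to 2526 CPM for 7 ductal markers. Among the acinar markers, Ctrb1 alone held 40340 to 66740 CPM, whereas Amy2a5 was low, at 3.55 to 13.7 CPM. Other genes of the amylase cluster were not read here, so this value does not give the level of amylase RNA as a whole. Markers of fibroblasts and stellate cells (8 of 8 detected) stood apart in DD 2 and DD + rDKK3 2, at 675 and 757 CPM, against 34.7 to 132 CPM in the other 4 libraries. Macrophage markers were likewise highest in these 2 libraries, at 225 and 174 CPM against 57.1 to 109.5 CPM. In such bulk libraries, fewer cells of a type and less RNA per cell cannot be told apart. Dkk3 itself was near the limit of detection in every library, with 10 and 1 counts for WT, 11 and 9 for DD and 5 each with rDKK3, so its level did not check the genotype labels.

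Per kilobase of exon, the scale used here to compare genes, Ptf1a had the highest level of the 8 in 6 of 6 libraries, with a median of 153 CPM per kilobase, above 98.5% of the tested genes of known length. Lengths merged all exons of a gene in a later and fuller annotation than that used for counting, and the effect on the order was not tested. After Ptf1a, Bhlha15 followed at a median of 18.2 CPM per kilobase. Hnf4a and Gata4 were near each other at medians of 11.5 and 11.4 CPM per kilobase. Neither stood first of that pair consistently, with Hnf4a above Gata4 in 3 of 6 libraries. Nr5a2 had a median of 8.09 CPM per kilobase and lay below Gata4 in 6 of 6 libraries. The lowest medians were those of Rbpjl at 4.02, Nr0b2 at 3.49 and Gata6 at 2.36 CPM per kilobase. Rbpjl was above Nr0b2, and Nr0b2 above Gata6, in 4 of 6 libraries each, so these neighbours did not differ beyond the spread between libraries. Bhlha15 was above Hnf4a in 5 of 6 libraries, the exception being WT 1.

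**Figure D1:**
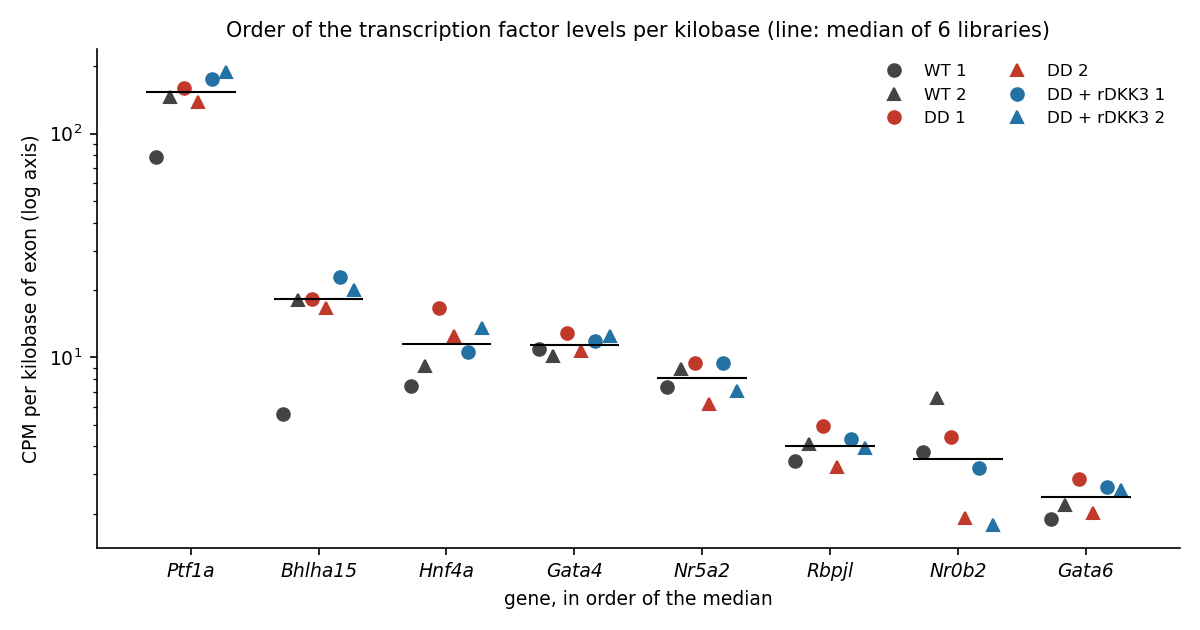
Level of the 8 transcription factors in CPM per kilobase of exon (log axis), 1 point a library (grey WT, red DD, blue DD + rDKK3; circle number 1, triangle number 2), with a line at the median of 6 libraries. Ptf1a lies above all others in 6 of 6 libraries, and WT 1 is the low point of Ptf1a and Bhlha15.

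The 2 WT cultures differed most for the 2 acinar bHLH factors. WT 1 is labelled male and WT 2 female, so sex cannot be told apart from this gap. Ptf1a, the DNA-binding core of PTF1, was at 119 CPM in WT 1 and 219.9 CPM in WT 2, at 242 and 209 CPM in DD, and at 264 and 285 CPM in DD + rDKK3. WT 1 was thus low, WT 2 lay within the DD range, and both treated libraries were above all others. Bhlha15 showed the same outlying library, with 19.6 CPM in WT 1 and 63.6 CPM in WT 2. Its levels were 64.0 and 58.3 CPM in DD and 80.7 and 70.1 CPM in DD + rDKK3. WT 1 was the lowest of the 6 libraries for 4 of the 8 members, whereas 30.5% of the tested genes were lowest there.

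Rbpjl, the acinar RBPJ-type subunit, was at 23.2 and 27.7 CPM in WT, 33.1 and 21.8 CPM in DD, and 29.1 and 26.4 CPM in DD + rDKK3. Its highest and lowest libraries were both DD, so the groups overlapped. Nr5a2, the orphan receptor, likewise spanned nearly its whole range within DD, at 63.3 and 76.4 CPM in WT, 81.1 and 53.2 CPM in DD and 81.6 and 61.3 CPM in DD + rDKK3. Gata4 was the steadiest member, with 62.1 and 57.6 CPM in WT, 73.3 and 61.0 CPM in DD and 67.5 and 70.9 CPM in DD + rDKK3. Gata6 was at 17.4 and 20.1 CPM in WT, 26.5 and 18.5 CPM in DD, and 24.3 and 23.5 CPM in DD + rDKK3. For both GATA genes the treated libraries lay above WT, whereas DD overlapped WT.

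Hnf4a was the only member whose 4 knockout libraries all lay above both WT libraries. It was at 37.5 and 46.3 CPM in WT, at 84.0 and 62.5 CPM in DD, and at 53.1 and 67.9 CPM in DD + rDKK3. Of the 14738 tested genes, 13% had all 4 knockout libraries above both WT libraries, and 14.7% had all 4 below. Nr0b2, the repressor, was at 8.15 and 14.1 CPM in WT, 9.47 and 4.12 CPM in DD and 6.87 and 3.82 CPM in DD + rDKK3, so that DD overlapped WT and the treated libraries lay below it. It was also the member with the fewest reads, down to 70 counts in DD 2, where counting error alone was 12.0% of the value. Its lowest 2 libraries, DD 2 and DD + rDKK3 2, were those with the most fibroblast marker RNA, whose part in the result was not tested.

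Between the DD libraries, 8 of 8 members were higher in DD 1 than in DD 2, compared with 52.1% of the tested genes. Between the WT libraries 7 of 8 were higher in WT 2, and between the treated libraries 5 of 8 were higher in number 1. On the log2 scale the gap between replicates reached 1.70 for Bhlha15 in WT, 1.18 for Nr0b2 in DD and 0.89 for Ptf1a in WT. The median gap over all tested genes was 0.30 in WT and 0.28 in DD.

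**Figure D2:**
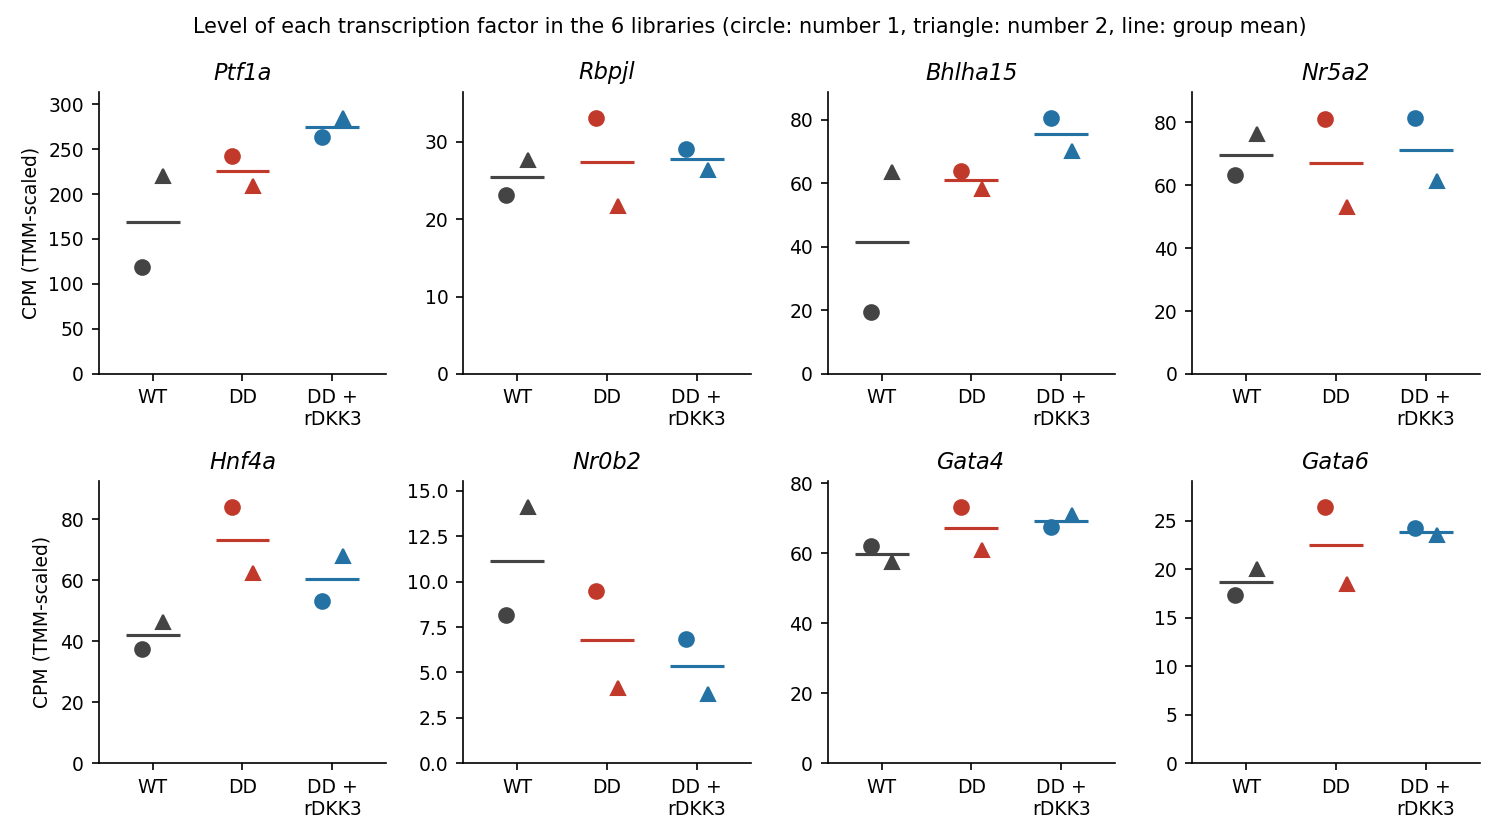
TMM-scaled CPM of each transcription factor (vertical axes, from 0) in the 6 libraries, with WT in grey, DD in red and DD + rDKK3 in blue, a circle for number 1, a triangle for number 2 and a line for the group mean. Ptf1a and Bhlha15 are low in WT 1 alone, Hnf4a is higher in the 4 knockout libraries than in WT, and Nr0b2 is lowest in DD 2 and DD + rDKK3 2.

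The comparison of DD with WT asked whether loss of DKK3 alters these factors. By edgeR's quasi-likelihood test with Benjamini-Hochberg adjustment over all tested genes, 0 of the 8 members passed an adjusted p of 0.05, a threshold that 0.0407% of the tested genes (6 genes) passed. At an unadjusted p under 0.05 there were 1 member, Hnf4a, and 1217 genes. Hnf4a was 1.75-fold higher in DD (log2 fold change 0.80 ± 0.21, SE, n = 2 against 2; 95% interval 0.31 to 1.30; edgeR adjusted p = 0.586). Its interval lay above 0, and 1 of 8 members, Hnf4a, had both DD libraries above both WT libraries, beside 18.1% of the tested genes. No member had both DD libraries below WT, beside 19.7% of the tested genes.

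For the other members the sign was positive for 5 and negative for 2. The log2 fold change of Ptf1a was 0.41 ± 0.28 (SE; 95% interval -0.23 to 1.06; edgeR adjusted p = 0.612) and that of Bhlha15 was 0.55 ± 0.44 (interval -0.48 to 1.57; edgeR adjusted p = 0.652). Both values rested on WT 1, falling to 0.05 and -0.04 on leaving it out, while leaving out WT 2 gave 0.93 and 1.65. Fits without WT 1, here and below, set the female WT library against male libraries, so sex and group cannot be told apart in them. Nr0b2 had a log2 fold change of -0.71 ± 0.46 (interval -1.78 to 0.35; edgeR adjusted p = 0.606), which was -0.24 without DD 2 and -1.42 without DD 1. Gata6 at 0.26, Gata4 at 0.17, Rbpjl at 0.11 and Nr5a2 at -0.06 were closer to 0. Gata4 had the narrowest interval, from -0.19 to 0.53, which is 0.875-fold to 1.44-fold. Over the 8 members the median log2 fold change was 0.21, beside 0.02 over all tested genes.

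Ratios between members were taken from counts per kilobase of exon, and do not depend on library scaling. That of Hnf4a to Nr5a2 was 1.02 and 1.04 for WT, 1.78 and 2.01 for DD, 1.12 and 1.90 with rDKK3. Per kilobase, the pair was thus near parity in both WT libraries, and in DD + rDKK3 1 the ratio was close to the WT level. The ratio of Nr0b2 to Nr5a2, the receptor that its product represses, was 0.517 and 0.742 for WT, 0.469 and 0.311 for DD, 0.338 and 0.250 with rDKK3. All 4 knockout libraries lay below both WT libraries on this ratio. The nearest values, 0.517 for WT 1 and 0.469 for DD 1, rest on 83 and 200 Nr0b2 counts, with counting errors of 11.0% and 7.07%. These ratios, and those given below, are a description with no test. How many other gene pairs would separate the groups in this way was not counted.

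DD + rDKK3 was set against DD to ask whether adding the protein back alters the factors. None of the 8 members passed the threshold by edgeR, nor did any gene (0% of 14738), whereas 0 members and 292 genes had an unadjusted p under 0.05, and DESeq2 called 5 genes and 0 members. By their titles each treated culture carries the number of an untreated knockout culture, and a replicate block within these 4 libraries called 194 genes, 0 members among them and 1 of 18 acinar secretory genes. Ptf1a was 1.22-fold higher with rDKK3, at a log2 fold change of 0.28 ± 0.28 (SE, n = 2 against 2; interval -0.36 to 0.93; edgeR adjusted p = 0.9999). Bhlha15 was 1.23-fold higher, at 0.30 ± 0.44 (interval -0.71 to 1.31; same adjusted p). These were the 2 of 8 members whose treated libraries both lay above both DD libraries, beside 15.1% of the tested genes. No member had both treated libraries below DD, beside 14.4% of the tested genes.

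Hnf4a and Nr0b2 had negative signs, at log2 fold changes of -0.28 ± 0.21 (interval -0.76 to 0.21) and -0.35 ± 0.46 (interval -1.43 to 0.72). The sign of Nr0b2 turned without DD 1, to 0.35. Gata4, Gata6, Nr5a2 and Rbpjl lay between 0.01 and 0.09, with the widest of their intervals, that of Nr5a2, running from -0.47 to 0.65. Without DD 2 these 4 were all negative. The median over the 8 members was 0.06, beside -0.003 over all tested genes.

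The comparison of DD + rDKK3 with WT combines genotype and treatment and shares its WT libraries with the first comparison. Again 0 of 8 members passed, beside 0.0475% of the tested genes (7 genes), and 2 members and 2261 genes had an unadjusted p under 0.05. Ptf1a was 1.62-fold higher than in WT (log2 fold change 0.70 ± 0.28, SE, n = 2 against 2; interval 0.05 to 1.34; edgeR adjusted p = 0.322). Without WT 1 its log2 fold change was 0.34, and without WT 2 it was 1.22. Hnf4a was 1.44-fold higher (0.53 ± 0.21; interval 0.04 to 1.02; edgeR adjusted p = 0.322). Bhlha15 had a log2 fold change of 0.85 ± 0.44 (interval -0.18 to 1.88), which was 0.26 without WT 1 and 1.95 without WT 2.

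Nr0b2 was the 1 member below WT in both treated libraries, beside 27.1% of the tested genes, at a log2 fold change of -1.07 ± 0.47 (interval -2.15 to 0.02; edgeR adjusted p = 0.328). Ptf1a, Bhlha15, Gata4, Gata6 and Hnf4a, 5 of 8 members, were above WT in both treated libraries, beside 27.9% of the tested genes. Gata6 was at 0.35 ± 0.20 and Gata4 at 0.21 ± 0.15 on the log2 scale, with intervals that included 0. Rbpjl and Nr5a2 were at 0.12 and 0.03. The median over the 8 members was 0.28, beside 0.02 over all tested genes.

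**Figure D3:**
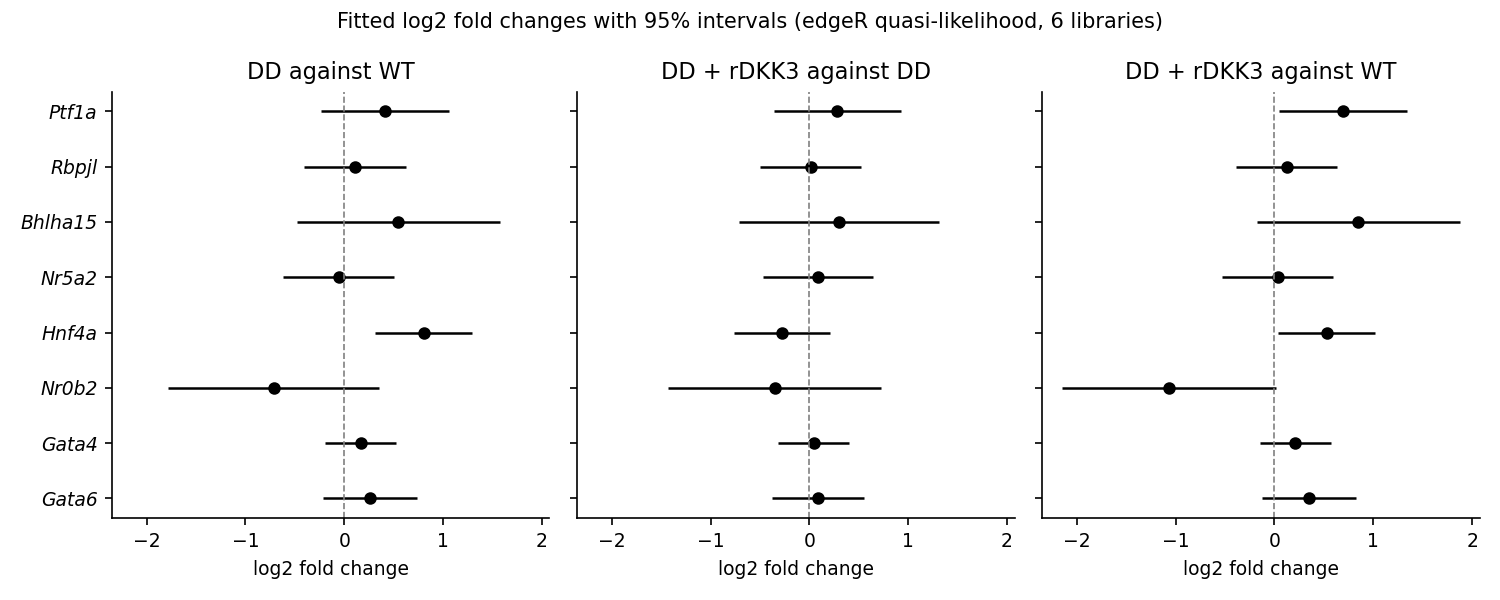
Fitted log2 fold change (point) with its 95% interval (line) for each transcription factor in the 3 comparisons, 2 libraries a group. The interval lies above 0 for Hnf4a in DD against WT and for Ptf1a and Hnf4a in DD + rDKK3 against WT, and includes 0 for the other values shown.

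**Figure D4:**
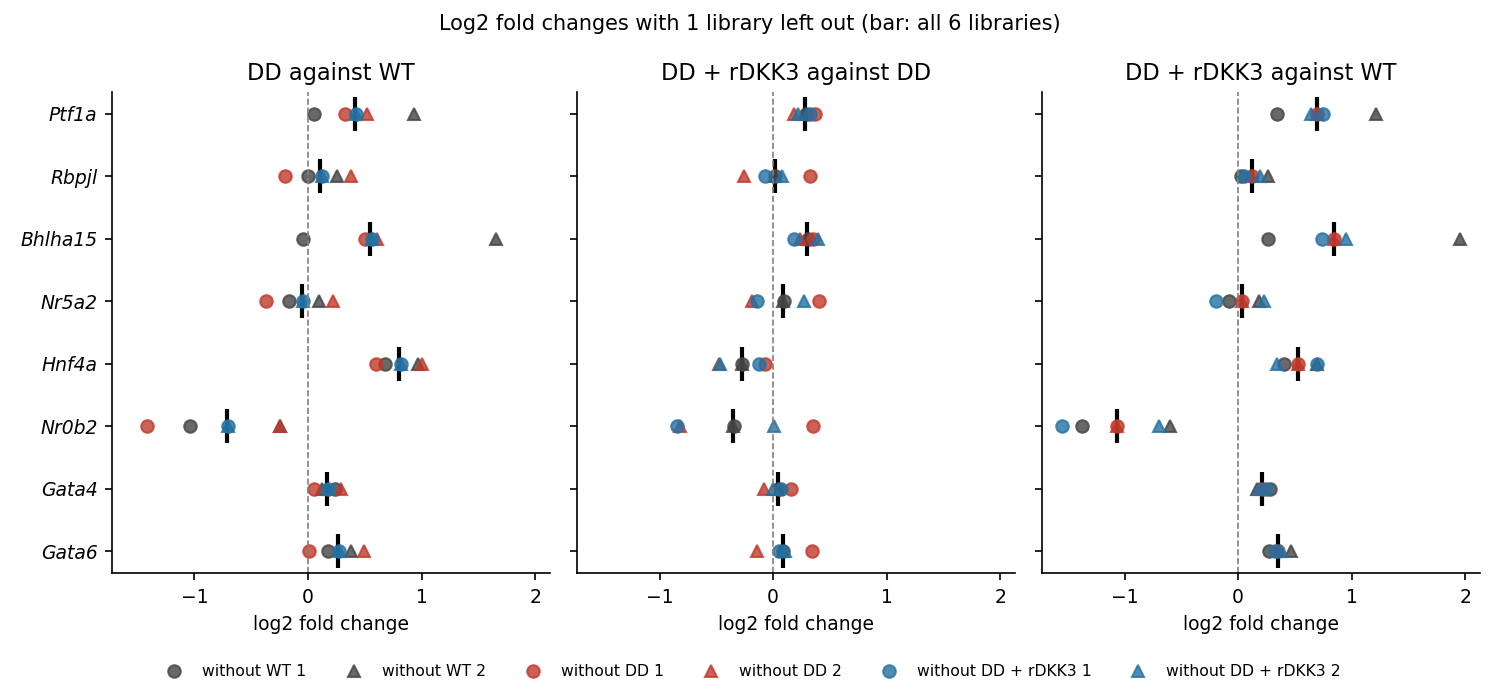
Log2 fold change of each transcription factor with 1 library left out at a time (coloured points; grey WT, red DD, blue DD + rDKK3; circle number 1, triangle number 2) beside the value from all 6 libraries (black bar). In DD against WT the points of Ptf1a and Bhlha15 spread widest on leaving out a WT library, those of Hnf4a stay above 0, and those of Nr5a2 fall on both sides of 0.

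Partners of the PTF1 complex were described from a list of 4: the E proteins Tcf3, Tcf12 and Tcf4, and Rbpj, the general subunit that RBPJL replaces. All 4 had positive log2 fold changes in each comparison and 0 passed the test, with medians of 0.12 in DD against WT, 0.16 in DD + rDKK3 against DD and 0.32 in DD + rDKK3 against WT. Rbpj was at 11.8 and 13.1 CPM in WT, 14.1 and 13.2 CPM in DD and 15.5 and 17.9 CPM in DD + rDKK3. It was highest in the treated libraries, at 0.42 ± 0.18 on the log2 scale against WT (edgeR adjusted p = 0.324). The ratio of Rbpjl to Rbpj in counts per kilobase of exon was 3.76 and 4.03 for WT, 4.50 and 3.16 for DD, 3.57 and 2.83 with rDKK3. Both treated libraries lay below both WT libraries on that ratio, and DD spanned the WT values.

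Of the bHLH antagonists, Id1, Id2 and Id3 encode proteins that sequester E proteins and Hes1 encodes a transcriptional repressor that acts downstream of Notch. Id4 was too low to test. Among the 4 tested, 3 were positive and 1 negative in DD against WT and 0 passed. Id1 had both DD libraries above WT, beside 18.1% of the tested genes (log2 fold change 0.67 ± 0.33, edgeR adjusted p = 0.586). It was at 87.6 and 69.6 CPM in WT, 87.7 and 162 CPM in DD, and 86.8 and 140.1 CPM in DD + rDKK3. Its level was thus high in DD 2 and DD + rDKK3 2, the libraries with the most fibroblast and macrophage marker RNA, whose part in the result was not tested. Hes1 was at 19.8 CPM in WT 1, against 45.3 to 53.3 CPM in the other 5 libraries, the same low library as for Ptf1a and Bhlha15.

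Partners of the GATA factors and nuclear receptors numbered 7, of which Nr0b1, at 0 counts in all 6 libraries, was not tested. In DD against WT 5 of 6 were positive and in DD + rDKK3 against WT 5 of 6, with 0 passing in either. Zfpm1, the GATA cofactor FOG1, was at 36.1 and 32.9 CPM in WT, 45.1 and 38.5 CPM in DD and 49.1 and 53.6 CPM in DD + rDKK3, with no overlap between the groups. Of the tested genes, 18.1% had both DD libraries above both WT libraries, and 15.1% both treated libraries above both DD libraries. The log2 fold change of Zfpm1 in DD + rDKK3 against WT was 0.57 ± 0.15 (edgeR adjusted p = 0.322). Ppargc1a, a coactivator of HNF4A, was 0.72 ± 0.35 in the same comparison (edgeR adjusted p = 0.345), with WT 1 low at 5.11 CPM, WT 2 at 11.9 CPM and the treated libraries at 12.8 and 15.5 CPM.

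Other transcription factors of the pancreas numbered 10, of which Foxa1 was too low to test. In DD against WT 8 of 9 were positive and 1 negative, and 0 passed. The negative one was Xbp1, the unfolded protein response factor that acts upstream of Bhlha15, at 1376 and 1055 CPM in WT, 1010 and 776 CPM in DD and 1115 and 947 CPM in DD + rDKK3. Between DD and WT its log2 fold change was -0.45 ± 0.22 (edgeR adjusted p = 0.586), and both DD libraries were below both WT libraries, beside 19.7% of the tested genes. Sox9, the ductal and progenitor factor, was 0.50 ± 0.19 in DD + rDKK3 against WT (edgeR adjusted p = 0.322). Of the 7 ductal markers, which include Sox9, 3 were positive and 4 negative there, with a median of -0.27 and 0 passing. Krt7 among them was at -0.55 ± 0.15 (edgeR adjusted p = 0.322).

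The PTF1 complex and NR5A2 drive the genes of digestive enzymes. Of 18 acinar secretory genes, 18 had negative log2 fold changes in DD against WT with a median of -0.74, whereas 51.7% of the tested genes were positive. By edgeR's test 0 of the 18 passed, while 8 had an unadjusted p under 0.05, beside 8.26% of the tested genes. DESeq2 called 4 of the 18 there and 80 of the 14738 tested genes. Without the filter on low counts edgeR called 5 of the 18 and 528 of 26506 genes. In DD + rDKK3 against DD all 18 were positive with a median of 0.25, beside 49.5% of the tested genes. In DD + rDKK3 against WT all 18 were negative with a median of -0.42, whereas 51.6% of the tested genes were positive. In either comparison 0 of the 18 passed. Without WT 1 the first of these became 17 of 18 and a median of -0.29, and the last became 11 of 18 and a median of -0.09. The middle one became 13 of 18 positive without DD 1 (median 0.17) and without DD + rDKK3 1 (median 0.15). Rnase1 was the gene with the smallest p in DD against WT (-0.85 ± 0.21; edgeR adjusted p = 0.555), followed by Pnliprp1 (-0.90 ± 0.26; adjusted p = 0.586).

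Summed over these 18 genes, the level was 207000 and 158000 CPM in WT, 132300 and 118500 CPM in DD, and 157700 and 129700 CPM in DD + rDKK3. Per CPM of Ptf1a, that sum was 1745 and 719 for WT, 546 and 567 for DD, 598 and 455 with rDKK3. WT 1, with the lowest Ptf1a and Bhlha15, thus held the most enzyme RNA, and all 4 knockout libraries lay below both WT libraries on the ratio. Per CPM of Nr5a2 the sum was 3272 and 2070 for WT, 1632 and 2226 for DD, 1933 and 2117 with rDKK3, with overlap in every comparison.

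**Figure D5:**
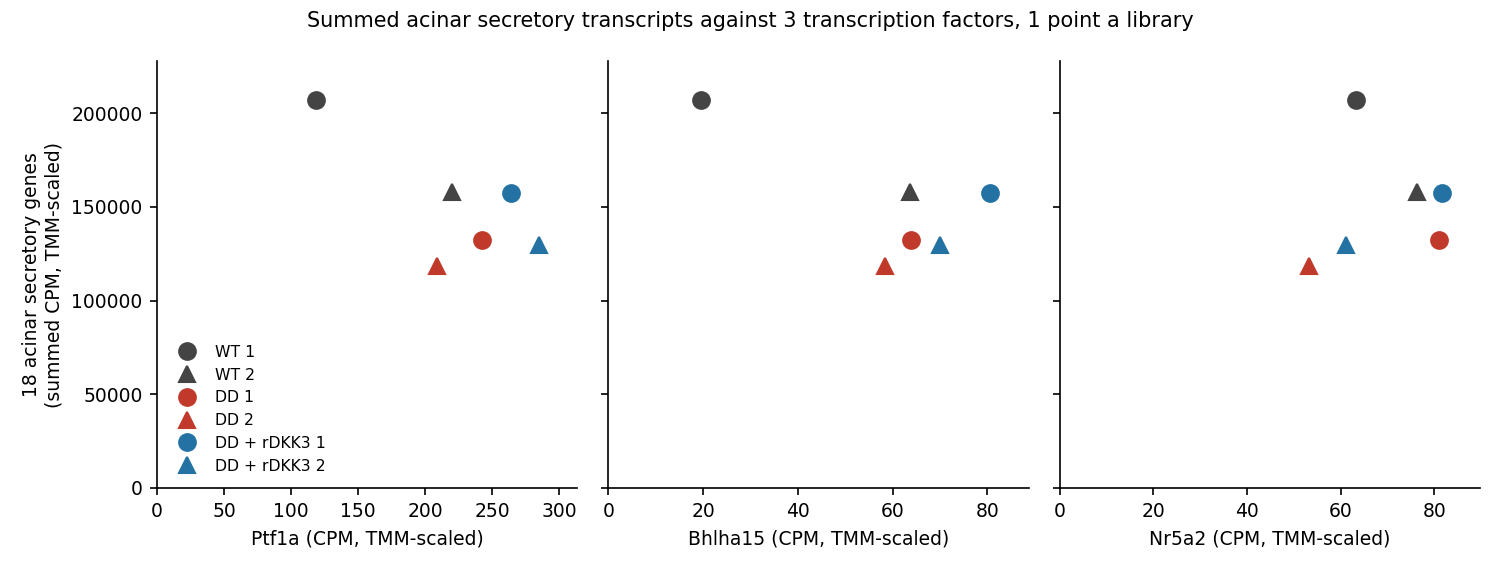
Summed level of 18 acinar secretory genes (CPM, vertical axis) against the CPM of Ptf1a, Bhlha15 and Nr5a2 (horizontal axes, all from 0), 1 point a library in grey (WT), red (DD) or blue (DD + rDKK3), with a circle for number 1 and a triangle for number 2. WT 1 has the highest secretory sum and the lowest Ptf1a and Bhlha15.

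Targets of BHLHA15 were taken as Gjb1, Rab3d, Rab26, Atp2c2 and Copz2. In DD against WT 1 was positive and 4 were negative, with 0 passing. Rab26, a small GTPase of secretory granules, was at 4.62 and 3.79 CPM in WT, 2.27 and 1.29 CPM in DD and 2.69 and 1.94 CPM in DD + rDKK3. All 4 knockout libraries were below both WT libraries, beside 14.7% of the tested genes, on counts of 22 to 54 a library. Against WT, Rab26 in DD was at -1.22 ± 0.38 on the log2 scale (edgeR adjusted p = 0.586). Gjb1, the gap junction protein of acini, was lower with rDKK3 than in DD (-0.41 ± 0.15; edgeR adjusted p = 0.9999). Summed over the 5 targets, the level stayed between 255 and 269.7 CPM in all 6 libraries, while Bhlha15 itself ranged 4.13-fold. The largest parts of that sum were Gjb1, at 82.0 to 118 CPM, and Rab3d, at 98.7 to 131 CPM. In DD 2 Gjb1 was highest and Rab3d lowest, and in DD + rDKK3 1 the reverse held. Rab26 alone ranged 3.57-fold.

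The genes whose level ran most like the 3 most variable members were found by the root mean square difference of centred log2 CPM over the 6 libraries, among 11865 genes. For Ptf1a the nearest was Ptf1aos, a long noncoding RNA gene on the opposite strand (chr2:19446319-19451485, overlapping Ptf1a at chr2:19450474-19452312 in GRCm39), at a difference of 0.02. Ptf1aos was at 61.1 and 118 CPM in WT, 129 and 113 CPM in DD and 143 and 151 CPM in DD + rDKK3, and its counts were 0.515 to 0.542 times those of Ptf1a in the 6 libraries. In the later annotation used for gene lengths, 609 of its 916 exon bases lie opposite Ptf1a exons. The counting was stated to use strand.

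For Bhlha15 the nearest was Gm35558, a transcript model of the class that still awaits experimental support, on chromosome 12, at a difference of 0.09 and at levels of 0.884 to 3.77 CPM. For Nr0b2 it was Kcnn4, a calcium-activated potassium channel gene, at a difference of 0.20. Kcnn4 was at 7.17 and 10.5 CPM in WT, 8.66 and 4.94 CPM in DD, and 6.39 and 3.23 CPM in DD + rDKK3. The other antisense neighbours had fewer counts relative to their members than Ptf1aos. Matn4, whose annotation overlaps Rbpjl, had 0.259 to 0.422 counts per Rbpjl count, Gata6os had 0.126 to 0.213 per Gata6 count, and Hnf4aos had at most 2 counts in a library.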

How the data were processed

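RNA from 6 primary acinar cultures was sequenced as strand-specific paired-end libraries. Per the authors' methods, reads were aligned with STAR (2.7.9a per the submitters' processing notes) to GRCm39 and counted over the exons of the basic GENCODE M32 annotation in union mode with strand. The deposited values are raw counts per gene, made by the authors before any normalisation, with replicates kept apart. Of 57045 features, 92 spike-in features with 0 counts were left out. Such gene-level counts cannot show which promoter or isoform was used.

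Genes were kept by edgeR's filterByExpr (minimum count 10, minimum total 15), which left 14738. The test was edgeR 4.0.16 (R 4.3.3), quasi-likelihood, with TMM factors and 1 model of 3 groups over 6 libraries (residual degrees of freedom 3), 2-sided, with Benjamini-Hochberg adjustment over all genes tested. SE is the absolute log2 fold change divided by the square root of F, and intervals are 95%. The script was tested on simulated data. Alternatives used DESeq2 1.42.0, limma 3.58.1, other scaling, no filter, a replicate block and leaving out each library. Levels between genes used exon lengths of GENCODE M39, with all annotated exons of a gene merged, and upstream windows came from the GRCm39 genome. Totals of 12018473 to 19750401 counts gave a counting error of 2.88% to 12.0% at the lowest count of each member, covering counting only.

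The members and gene lists were chosen with earlier results of these data known. Named were the 8 members in every comparison, up to 3 genes of each list with the smallest p, and, for the 3 members of widest range, the 1 gene (mean log2 CPM of at least 1) of smallest root mean square difference. Sums, ratios, Rab26 and other levels beyond that rule were chosen after their values were seen.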

Additional observations from a re-analysis of the deposited data

How the results depend on the processing

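Of 344 member values under alternative settings, 324 kept their direction and side of the threshold, 4 passed it and 16 changed sign. Without the filter on low counts (26506 genes), genes called rose to 528 in DD against WT, 73 in DD + rDKK3 against DD and 788 in DD + rDKK3 against WT. Members called were then 1 in DD against WT (Hnf4a, adjusted p = 0.000925) and 3 in DD + rDKK3 against WT (Ptf1a, 0.0173; Bhlha15, 0.000588; Nr0b2, 0.0183), each by edgeR. The cause was not tested. DESeq2 called 80, 5 and 74 genes and no member, and limma-voom called 3 genes in DD + rDKK3 against WT. In that comparison DESeq2 gave no adjusted p for Rbpjl, Gata6 and Nr0b2, so these members could not be called. Their values there were counted among the 324 as not passing. Leaving out 1 library at a time gave 2 to 6 genes for DD and 2 to 9 genes for DD + rDKK3, both relative to WT.

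Treated and untreated knockout cultures carry matching numbers in their titles, but no label names a shared animal, so whether they are paired is not known. A replicate block over all 6 libraries changed no member's call, and it called 7 genes in DD against WT, 0 in DD + rDKK3 against DD and 5 in DD + rDKK3 against WT. Deviations of the number 1 libraries correlated at 0.65 between DD and DD + rDKK3, at -0.39 between WT and DD and at -0.25 between WT and DD + rDKK3. The block within the 4 knockout libraries called 194 genes and no member. With the WT numbers exchanged, a choice made after seeing the data, the block called 296, 29 and 566 genes.

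Signs turned for values near 0 or resting on 1 library. On leaving out 1 library at a time, the log2 fold changes ran as follows. For DD against WT, Nr5a2 ran from -0.369 (without DD 1) to 0.216 (without DD 2; 0.093 without WT 2), Bhlha15 from -0.0421 (without WT 1) to 1.65, and Rbpjl from -0.203 (without DD 1) to 0.38. For DD + rDKK3 against DD, Rbpjl ran from -0.255 to 0.328, Nr0b2 from -0.845 to 0.355, Nr5a2 from -0.182 to 0.402, Gata4 from -0.0807 to 0.159 and Gata6 from -0.145 to 0.345, the ends being the fits without DD 2 and DD 1, except that the lowest of Nr0b2 was without DD + rDKK3 1. Other turned values there were those of Rbpjl (-0.0688) and Nr5a2 (-0.145) without DD + rDKK3 1 and Nr0b2 (0.00641) without DD + rDKK3 2. For DD + rDKK3 against WT, Nr5a2 ran from -0.191 to 0.229 without the 2 treated libraries in turn, and was -0.0764 without WT 1. Library size alone turned Nr5a2 in DD against WT (0.142) and Rbpjl in DD + rDKK3 against DD (-0.0319), and under it the median of the tested genes relative to WT was 0.22 for DD and 0.18 for DD + rDKK3, in place of 0.02 for both. With 2 libraries a group, the intervals of Bhlha15 and Nr0b2 were the widest of the 8 in each comparison.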
